A study of Mus musculus with 11 samples.

Results

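The genes described here are 8 interferon-stimulated genes of normal mouse liver, *Rsad2*, *Ifit1*, *Ifit2*, *Ifit3*, *Usp18*, *Mx1*, *Irf7* and *Irf1*, followed from fetal to adult life. They were chosen by name, with earlier results of these same arrays known, so their differences between stages are given as a description and carry no test. All 8 were on the array with 14 probes, and 13 of these probes were well above background in the liver channel on at least 1 array. Every one of the 8 was among the 16702 genes that passed the filter on dim probes, and none lacked a value on any array.

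RNA of normal mouse liver was hybridised to 11 arrays of 2 colours, 3 each at E14.5, E18.5 and P56 and 2 at P5 (replicates 2 and 3), where E is the embryonic and P the postnatal day and the labels write the embryonic days as 14 and 18. Liver RNA carried Cy5 on every array, and commercial RNA of normal adult mouse liver, the common reference, carried Cy3, with no dye swap. The labels call the E14.5 samples hepatoblasts, the E18.5 samples immature hepatocytes and the P5 and P56 samples hepatocytes, but they also name liver as the source, and the protocol lists both whole livers and cells isolated from fetal livers, so which of these an embryonic array holds is not settled. The study's methods describe isolation of cells from livers of C57BL/6 embryos of both ages by selection for E-cadherin on magnetic beads, a selection for epithelial cells, followed by culture, and they do not say whether the arrays hold such cells. No treatment or mutation is given for any of the 4 stages and no strain for P5 or P56, and the labels call the samples of a stage biological replicates. Spots well above background in Cy5 numbered 22027 to 25718 of 43379 at the first 3 stages and 16790 (replicate 2) to 23079 at P56, against 22671 to 25292 for Cy3 over all arrays. Between replicates, Pearson's r across genes was highest for E14.5 (0.987 to 0.990), then E18.5 (0.968 to 0.985), the P5 pair (0.900) and P56 (0.826 to 0.937). The 7 measured hepatocyte markers were detected in Cy5 on every array, and so were 5 of the 6 erythroid markers, so transcripts of red blood cell precursors were present in samples labelled with a hepatic cell type. In such bulk RNA, fewer cells of a type and less RNA per cell cannot be told apart.

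Interferons are secreted proteins that cells release on sensing viral nucleic acid. Type I and type III interferons act through the kinases JAK1 and TYK2 and a transcription factor complex that includes STAT2 and IRF9 and binds the interferon-stimulated response element, while interferon gamma acts mainly at another DNA element, the gamma-activated site. Among the genes induced, *Rsad2* encodes viperin, an enzyme that makes a chain-terminating nucleotide. *Ifit1*, *Ifit2* and *Ifit3* encode tetratricopeptide-repeat proteins that bind viral RNA or one another, and *Mx1* encodes a dynamin-like GTPase against influenza virus. *Usp18* encodes the protease that removes ISG15 from proteins and also dampens the type I receptor. *Irf7* encodes the transcription factor that amplifies interferon alpha production, and *Irf1* a factor induced strongly by interferon gamma.

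The promoter sequences are shown because the members share these response elements to different degrees. RefSeq promoters (GRCm38.p6, 250 bases before to 50 after each start) matched 6 of the 8 members, and none was matched for *Usp18* or *Mx1*. The 250 bases before the start were searched on both strands for GAAANNGAAA, the core of the response element, and for TTCNNNGAA, the core of the gamma-activated site, which reads the same on both strands. The capitals below mark the matches, each stretch is on the strand of the gene, and the 2 motifs did not overlap in any of them.
Ifit1, chr19:34640755-34640843, plus strand: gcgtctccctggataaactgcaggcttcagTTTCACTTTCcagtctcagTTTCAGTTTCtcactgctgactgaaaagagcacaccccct
Ifit3, chr19:34583343-34583446, plus strand: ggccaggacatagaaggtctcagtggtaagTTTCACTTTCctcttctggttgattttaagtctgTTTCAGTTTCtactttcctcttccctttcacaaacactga
Rsad2, chr12:26456533-26456602, minus strand: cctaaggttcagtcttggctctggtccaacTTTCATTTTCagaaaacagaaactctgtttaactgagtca
Irf1, chr11:53769894-53769962, plus strand: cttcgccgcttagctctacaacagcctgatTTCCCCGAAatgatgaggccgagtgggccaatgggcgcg
Ifit2, chr19:34550444-34550491, plus strand: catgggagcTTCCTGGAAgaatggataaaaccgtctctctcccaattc
In the first 3 stretches the capitals spell GAAANNGAAA read on the opposite strand. *Ifit1* held 2 such matches, from -104 and from -85 relative to the start, *Ifit3* held 2, from -156 and from -122, and *Rsad2* held 1, from -120. *Irf1* held 1 match to TTCNNNGAA, from -90, and *Ifit2* 1, from -241, each in 1 of the gene's 2 promoters, and *Irf7* held neither motif. GAAANNGAAA was present before 20 of the 70 listed pathway genes with a promoter (28.6%) and before 936 of 27025 genes in all (3.46%), or in 978 of the 32851 promoters (2.98%). TTCNNNGAA was present before 15 of the 70 pathway genes (21.4%) and before 2197 genes in all (8.13%), or in 7.02% of the promoters. A match describes the letters only.

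Of the 14 probes, 4 cover a genome span longer than their 60 bases and so cross a splice junction. The pair for *Rsad2* is shown because they report spliced transcript and give readings of this gene besides its brightest probe. The first spans 3302 bases (mm7, chr12:24286540-24289841, minus strand) and the second 3039 bases (mm7, chr12:24281379-24284417, minus strand), and the first has 2 reading frames without a stop codon and the second 1. The probe of *Irf7*, which stands alone for its gene, spans 351 bases (mm7, chr7:137682028-137682378, minus strand) and has 2 such frames.
Rsad2, first junction probe: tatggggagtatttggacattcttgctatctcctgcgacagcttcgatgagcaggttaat
Rsad2, second junction probe: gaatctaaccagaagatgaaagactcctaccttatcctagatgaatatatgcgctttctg
Irf7, junction probe: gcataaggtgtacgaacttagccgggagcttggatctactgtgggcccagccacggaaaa

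Values below are log2 ratios of liver over the adult reference after background correction and loess normalization within each array, so 0 means a level like that of the reference and 1 unit is a doubling. The brightest probe stands for a gene, and levels are compared within a probe only.

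*Rsad2* had the widest range of the 8 members. Its log2 ratios were -2.25, -2.49 and -2.17 on the E14.5 arrays, 3.23, 3.60 and 4.07 on those of E18.5, 2.75 and 1.96 on those of P5 and -0.82, -0.89 and -1.09 on those of P56. The order of the stages was E18.5, P5, P56 and E14.5, and no neighbouring stages in this order overlapped. E18.5 exceeded E14.5 by 5.93 ± 0.22 (SE of the limma fit, as for all differences below), a 61.1-fold difference that ranked at place 4 from the top of the 16702 genes. P5 was below E18.5 by a difference of -1.28 ± 0.25, and P56 below P5 by -3.29 ± 0.25, rank 90 from the bottom. P56 still exceeded E14.5 by 1.37 ± 0.22. Each of these is from the probe at mm7 chr12:24278814-24278873 on the minus strand.

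The raw signals of the brightest probe showed which channel moved. In Cy5, the spot of *Rsad2* minus its local background was 22.4, 33.9 and 49.2 intensity units at E14.5, 4561, 5637 and 9415 on the E18.5 arrays, 4232 and 1605 on those of P5 and 101, 31.3 and 65.0 on those of P56. In Cy3 the same spot lay between 321 and 544 on all 11 arrays, a 1.70-fold range. The reference was thus steady at this probe while the liver channel went from far below it to far above it and back.

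**Figure D1:**
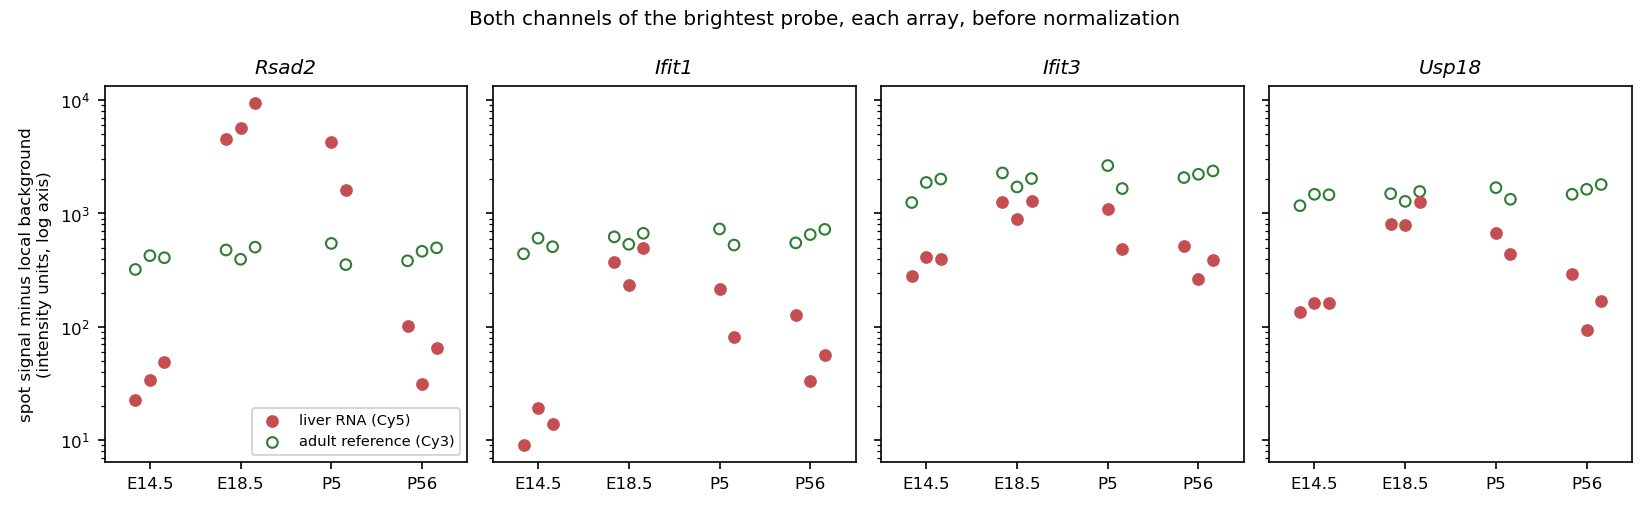
Signal minus local background of the brightest probe (intensity units, log axis) on each of the 11 arrays, before normalization, for *Rsad2*, *Ifit1*, *Ifit3* and *Usp18*. Filled points are liver RNA (Cy5) and open points the adult reference (Cy3). For *Rsad2* the Cy3 points stay between 321 and 544 while the Cy5 points run from 22.4 to 9415, and among these 4 genes Cy5 points lie above Cy3 points for *Rsad2* alone, at E18.5 and P5. Replicates 2 and 3 of P56 had fewer Cy5 spots well above background than any array of another stage, and these points are not normalized for that.

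The junction probes gave the same order of stages with smaller ratios. The first read 1.79, 2.00 and 1.93 on the E18.5 arrays, 1.16 and 0.29 on those of P5 and -0.33, -0.14 and -0.29 on those of P56, and the second 2.56, 2.75 and 2.97, then 1.86 and 0.54, then 0.01, -0.22 and -0.22. Neither was well above background in Cy5 on any E14.5 array, so for them only a bound can be given there. At P56 each was well above background on 1 array only, so their order of P56 and E14.5 rests on dim spots. The log2 ratios of E18.5 and E14.5 differed by 2.48 for the first, and for the second their means were 2.76 and -0.64. On the scale of the normalized liver channel alone, which gives larger folds for these probes than the ratio does, E18.5 was at least 7.65-fold above E14.5 by the first and at least 11.5-fold by the second. Such bounds, here and below, set the normalized Cy5 mean of the bright stage against, on each dim array, the higher of the probe's own signal and the lowest signal among probes well above background. All 3 probes of *Rsad2* separated E18.5 from E14.5 with no overlap. In Cy3 the first junction probe lay at 36.1 to 49.2 intensity units at E14.5 and at 78.1 to 138 at E18.5. The second lay at 40.2 to 68.7 and at 72.2 to 104, so the reference reading of this pair was also higher at E18.5.

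Among the *Ifit* genes, which lie side by side on chromosome 19, *Ifit1* had the largest difference between the fetal stages. Its log2 ratios were -2.92, -3.21 and -3.04 on the E14.5 arrays, -0.62, -1.17 and -0.49 on those of E18.5, -1.64 and -1.43 on those of P5 and -1.07, -1.22 and -1.67 on those of P56 (mm7, chr19:34350610-34350669). E14.5 was the lowest stage and separate from the rest, E18.5 was separate from P5, and P56 overlapped both. At E14.5 the spot was well above background on 2 of the 3 arrays, with 9.02 to 19.3 intensity units in Cy5 against 441 to 606 in Cy3. E18.5 exceeded E14.5 by 2.30 ± 0.19, or 4.91-fold, and P5 was lower than E18.5 by a difference of -0.78 ± 0.21. From P5 to P56 the difference was 0.21 ± 0.21, within its error, and P56 exceeded E14.5 by 1.74 ± 0.19.

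*Ifit3* was measured by a pair of probes. The brightest probe (mm7, chr19:34289919-34289978) read -1.96, -2.13 and -2.25 on the E14.5 arrays, -0.70, -0.96 and -0.66 on those of E18.5, -1.33 and -1.35 on those of P5 and -1.35, -1.15 and -1.38 on those of P56. E18.5 was the highest stage and E14.5 the lowest, while P5 and P56 overlapped. E18.5 exceeded E14.5 by 1.34 ± 0.11, P5 was below E18.5 by a difference of -0.56 ± 0.13, and P56 differed from P5 by 0.04 ± 0.13. The other probe (mm7, chr19:34313887-34313946), named *Ifit3* in the array design, lies apart from the first and may match the near copy *Ifit3b*. It differed by 1.26 between E18.5 and E14.5 and by 1.09 between P56 and E14.5, and its P5 and E18.5 values overlapped.

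*Ifit2* was dimmer. Its brightest probe (mm7, chr19:34277058-34277117) read -1.21, -1.30 and -1.35 on the E14.5 arrays, -0.29, -0.48 and -0.30 on those of E18.5, -0.78 and -0.62 on those of P5 and -1.43, -0.74 and -1.20 on those of P56. E18.5 was separate from every other stage, and it exceeded E14.5 by 0.93 ± 0.15. P5 was below E18.5 by a difference of -0.35 ± 0.17. At P56 the Cy5 spot was 4.80 to 10.2 intensity units above its local background and not well above background on any array, so P5 was at least 1.19-fold above P56 and no fold is given between P56 and E14.5. The other probe was well above background on 3 arrays only (2 at E18.5 and 1 at P5), and its E18.5 and E14.5 values overlapped.

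*Mx1* stayed near the limit of detection. The probe that stands for it (mm7, chr16:97829378-97829437, minus strand) was detected on all 5 arrays of E18.5 and P5 and on none of E14.5 or P56, with Cy5 signals of 20.0 to 35.6 intensity units against -1.68 to 10.9. Its log2 ratios were 0.31, 0.17 and 0.45 at E18.5, 0.15 and 0.02 at P5, -0.10, -0.30 and -0.14 at P56, and -0.19, -0.24 and -0.14 at E14.5. E18.5 was at least 1.28-fold above E14.5, P5 was at least 1.12-fold above P56, and no fold is given between the pair of undetected stages. The other probe was not well above background on any array. Many inbred laboratory mouse strains, C57BL/6 among them, carry a defective *Mx1* allele.

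*Usp18* followed the order of *Rsad2* over a narrower range. Its log2 ratios (mm7, chr6:121295796-121295855) were -2.70, -2.90 and -2.86 on the E14.5 arrays, -0.74, -0.74 and -0.32 on those of E18.5, -1.36 and -1.18 on those of P5 and -1.54, -1.71 and -1.90 on those of P56. The 4 stages did not overlap, in the order E18.5, P5, P56 and E14.5. E18.5 exceeded E14.5 by 2.22 ± 0.14, or 4.65-fold. P5 was below E18.5 by a difference of -0.67 ± 0.15 and P56 below P5 by one of -0.45 ± 0.15, and P56 exceeded E14.5 by 2.15-fold, a log2 difference that came to 0.24 when each array's median was subtracted instead of the loess fit. Its single probe was detected in the liver channel of all 11 arrays.

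*Irf7* had like means at E18.5 (-1.87) and P56 (-1.81). It read -2.69, -3.02 and -3.07 on the E14.5 arrays, -2.12, -1.84 and -1.65 on those of E18.5, -2.48 and -1.79 on those of P5 and -2.04, -1.51 and -1.88 on those of P56. Only E14.5 was separate from the rest, and E18.5, P5 and P56 overlapped one another. E18.5 exceeded E14.5 by 1.06 ± 0.20 and P56 exceeded it by 1.12 ± 0.20. P5 differed from E18.5 by -0.27 ± 0.22 and P56 from P5 by 0.33 ± 0.22, and the 2 P5 arrays lay 0.69 apart, so both values turn on which of them is used. Without P5 replicate 2 the first was 0.08 and the second -0.02.

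*Irf1* read -3.34, -3.62 and -3.46 on the E14.5 arrays, -1.82, -1.88 and -1.91 on those of E18.5, -2.51 and -2.20 on those of P5 and -2.51, -2.07 and -2.26 on those of P56 (mm7, chr11:53733970-53734029). E18.5 was the highest stage, P5 and P56 overlapped, and E14.5 was the lowest. The difference was 1.60 ± 0.13 between E18.5 and E14.5, -0.49 ± 0.14 between P5 and E18.5, 0.07 ± 0.14 between P56 and P5, and 1.19 ± 0.13 between P56 and E14.5. It was the brightest member probe in the reference, at 6467 to 11566 intensity units in Cy3. A dimmer junction probe of *Irf1* (mm7, chr11:53730701-53730846) also separated E18.5 from E14.5, by 0.35, but its order of stages was another, with means of -1.53 (E14.5), -1.19 (E18.5), -1.06 (P5) and -0.81 (P56), the last 3 stages overlapping.

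**Figure D2:**
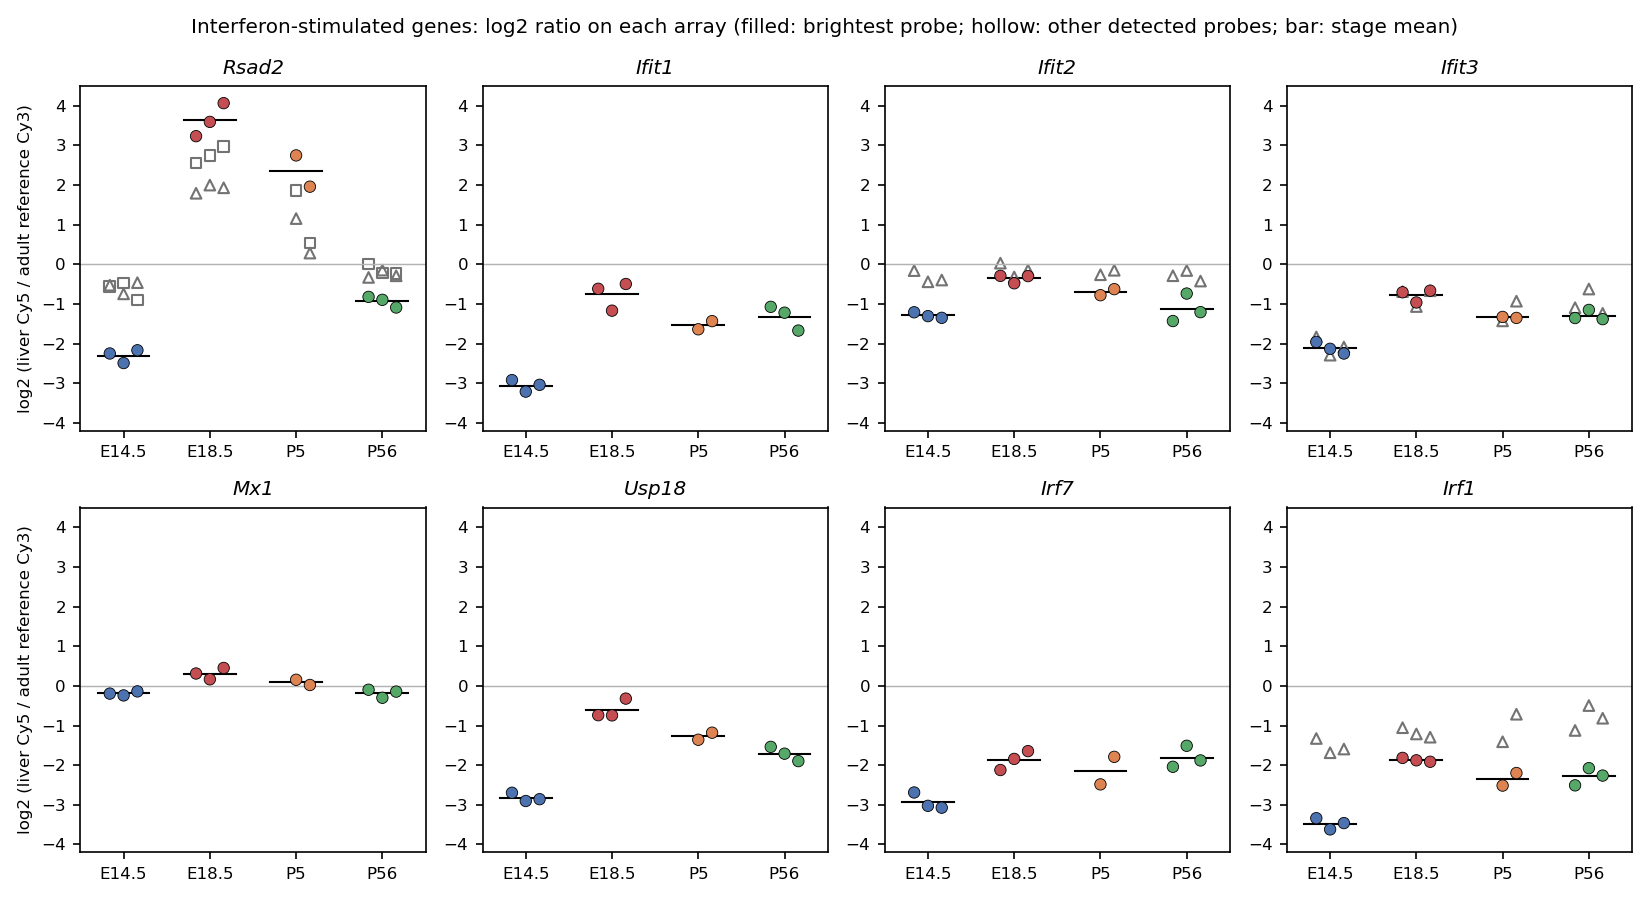
Log2 ratio of liver (Cy5) over the adult reference (Cy3) for the 8 members on each array, by stage. Filled points are the brightest probe with a bar at its stage mean, hollow points are the other probes detected in Cy5, and the 3 positions within a stage are replicates 1 to 3. E18.5 lies above E14.5 on every array for all 8 filled series, and *Rsad2* reaches 4.07.

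Over the 8 members, the E18.5 arrays lay above the E14.5 arrays with no overlap for 8 of 8, as did those of 30.9% of all genes tested (31.5% lay lower). The median difference was 1.47 against -0.01 over all genes. *Mx1* was not well above background at E14.5 and passed the filter only through E18.5 and P5, so its place in this count is no test. From E18.5 to P5, 7 of the 8 lay lower with no overlap (*Irf7* overlapped), as did 21.5% of all genes (22.5% lay higher), with a median of -0.52. From P5 to P56, 3 of the 8 lay lower with no overlap (*Rsad2*, *Usp18* and *Mx1*, the last not well above background at P56), as did 32.9% of all genes (28.3% lay higher), and the other 5 overlapped. The median there was -0.11, or -0.06 with *Ifit2* and *Mx1* at their bounds. P56 lay above E14.5 with no overlap for 6 of the 8 (all but *Ifit2* and *Mx1*), as did 38.9% of all genes (36.8% lay lower), with a median of 1.11 against 0.04 over all genes. The members were picked knowing this contrast, so nothing is read from these counts.

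The arrays were scanned in 4 sessions, and the first of them held all 3 E14.5 arrays and E18.5 replicate 1. Within that session the difference between E18.5 and E14.5 was 5.53 for *Rsad2*, 2.44 for *Ifit1*, 2.08 for *Usp18*, 1.66 for *Irf1*, 1.41 for *Ifit3*, 1.00 for *Ifit2* and 0.81 for *Irf7*. These 7 kept the sign of the full comparison, and *Mx1* is left out because it was not well above background at E14.5. The fourth session held P5 replicate 3 and all P56 arrays, and within it P56 differed from P5 by -2.89 for *Rsad2*, -0.53 for *Usp18*, -0.08 for *Irf1*, -0.02 for *Irf7*, 0.06 for *Ifit3* and 0.11 for *Ifit1*. For P5 against E18.5 and P56 against E14.5, scan and stage cannot be told apart.

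Processing moved the sizes more than the order of the fetal stages. For E18.5 against E14.5 every member was above 0 in each of the settings run, from 0.32 (*Mx1*, Cy5 channel alone, with no E14.5 spot well above background) to 7.40 (*Rsad2*, the software's processed signals). The authors' gene table, in which probes are averaged, gave 6.27 for *Rsad2*, 4.38 for *Ifit1*, 2.64 for *Usp18*, 1.95 for *Ifit3*, 1.79 for *Irf7*, 1.41 for *Irf1*, 1.40 for *Ifit2* and 1.04 for *Mx1*. *Ifit1*, dim at E14.5, differed most between these and the values above. The offset of 50 used here adds to both channels and so pulls ratios of dim spots towards 0. For P56 against P5 the members split in sign, and subtracting each array's median instead of the loess fit put all 8 below 0, with the median of all genes at -0.47. *Rsad2* and *Usp18* were below 0 in every setting run for that comparison, and so were *Ifit2* and *Mx1*, which were dim at P56. For P56 against E14.5, the same subtraction of the array median brought the differences down to 0.90 for *Ifit1*, 0.57 for *Irf1* and for *Rsad2*, 0.24 for *Irf7* and for *Usp18*, and 0.01 for *Ifit3*, with the median of all genes at -0.33.

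**Figure D3:**
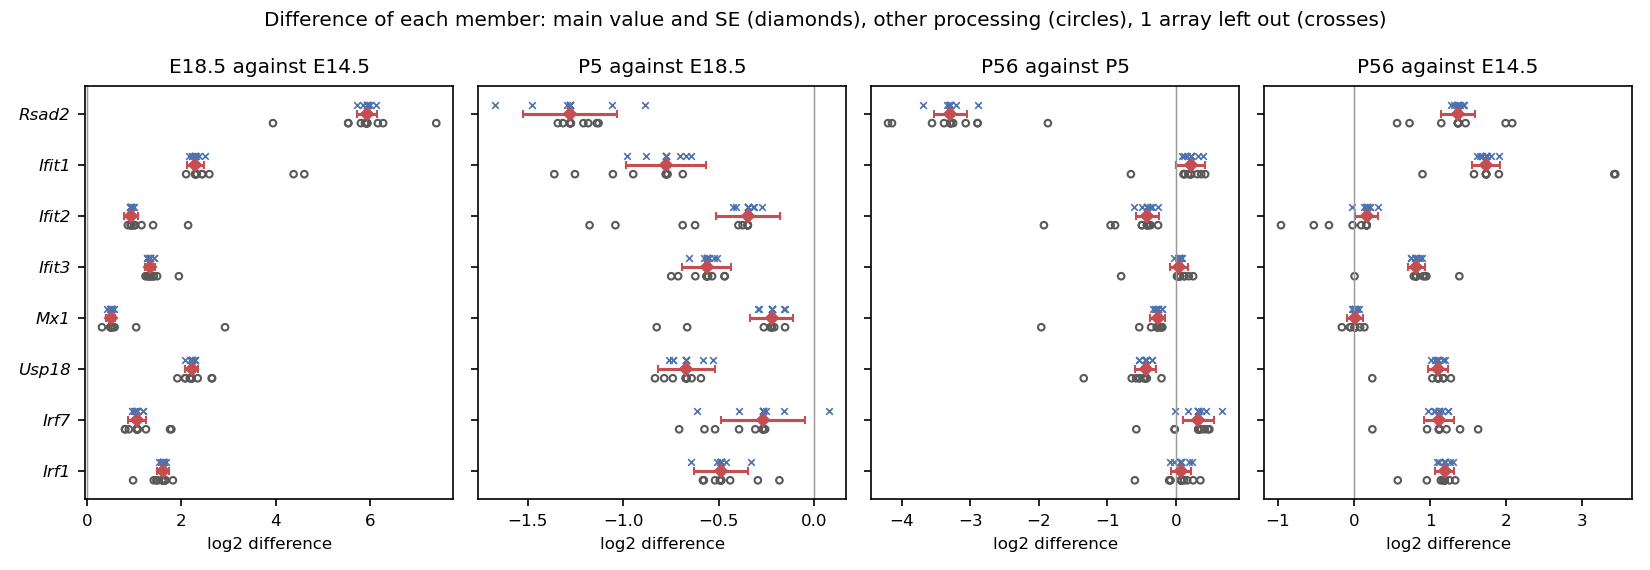
Log2 difference of each member in the 4 comparisons. Diamonds with bars are the values and SE given in the text, open circles the same difference under other processing, within a scan or from the authors' gene table, and crosses the fits with 1 array left out. Horizontal scales differ between panels. In E18.5 against E14.5 all circles and crosses lie above 0, and in P56 against E14.5 *Ifit2* and *Mx1* lie on both sides of 0.

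The wider pathway was described with a list of 101 genes outside the members, of which 96 were on the array and 90 passed the filter. Here limma's test applies, adjusted over all 16702 genes, although the list was written with earlier results of these arrays known. At E18.5 against E14.5, 72 of the 90 rose, 1 fell (*Jak2*) and 17 did not pass, where 24.6% of all genes rose and 22.8% fell. The median difference was 0.98 against -0.01 over all genes. The 72 include *Irf4* and *Oas3*, which were well above background on no E14.5 array. *Irf4* passed the filter through E18.5 alone and *Oas3* only through E18.5 and P5, so their place in this count is no test. At P5 against E18.5, none rose, 18 fell and 72 did not pass, where 7.32% of all genes rose and 6.4% fell. At P56 against P5, 12 rose and 24 fell, where 20.9% of all genes rose and 24.7% fell. At P56 against E14.5, 64 rose and 9 fell, where 36.1% of all genes rose and 34.8% fell. When each array's median was subtracted instead of the loess fit, the last 2 splits were 1 and 60, and 28 and 22, while the median of all genes moved to -0.47 and -0.33. Within the scan sessions that held both stages, the median was 0.88 for E18.5 against E14.5 and -0.19 for P56 against P5, and with the scan as a block 18 genes were called in the latter. Without P5 replicate 2 the count of changed genes for P56 against P5 went from 36 to 20, and without P5 replicate 3, or without E18.5 replicate 3, that for P5 against E18.5 went from 18 to 10. With the Cy5 channel alone, 25 rose and 19 fell at P56 against P5, and with no background subtraction 20 and 24.

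Of the 40 antiviral effectors 37 rose at E18.5 against E14.5, with a median of 1.27. *Oas3* was well above background on no E14.5 array. It passed the filter only through E18.5 and P5, so its place among the 37 is no test. Its level at E18.5 was at least 1.51-fold above E14.5. *Ifi44* was also well above background on no E14.5 array, and its E18.5 level was at least 3.48-fold above E14.5. *Isg15*, the ubiquitin-like protein that USP18 removes, had the largest difference of these effectors, 3.98 ± 0.21 (adjusted p = 4.4e-08). Its log2 ratios were -2.71, -2.82 and -2.73 on the E14.5 arrays, 0.93, 0.90 and 1.85 on those of E18.5, -0.70 and -0.31 on those of P5 and -1.26, -1.35 and -1.26 on those of P56, and it fell again at P5 by a difference of -1.73 ± 0.24. *Rtp4*, a receptor-transporting protein, rose by 3.05 ± 0.21 (adjusted p = 3.3e-07). *Isg20*, an exonuclease, read 0.15, -0.25 and -0.13 on the E14.5 arrays, 2.63, 3.01 and 2.96 on those of E18.5, 2.78 and 2.55 on those of P5 and -0.49, -0.29 and -0.52 on those of P56. It held its level to P5 and then fell by 3.10 on the log2 scale (SE 0.15, limma adjusted p = 4e-08), the largest fall of the list at P56 against P5, and *Rsad2* was lower by a similar difference there.

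The shares of all genes given above for each comparison are the background for the counts by role, here and below. From E18.5 to P5, 11 of 40 effectors fell and none rose, where 6.4% of all genes fell, with *Isg15* and *Ifi205* (-0.98 ± 0.20) furthest. From P5 to P56, 5 rose and 11 fell, where 20.9% of all genes rose and 24.7% fell, so the falls were near that share. The rises were led by *Bst2* (tetherin, 1.14 ± 0.13) and *Ifi35* (0.67 ± 0.14). *Isg20* and *Zc3hav1* (the zinc-finger antiviral protein, -1.50 ± 0.13) fell furthest. Against E14.5, 29 were higher at P56, led by the probe named *Ifi27* in the array design (*Ifi27l2a* in RefSeq, 2.92 ± 0.35) and *Rtp4* (2.38 ± 0.21), and 4 were lower, among them *Zc3hav1* (-1.29 ± 0.12) and *Uba7*, the activating enzyme of ISG15 (-0.96 ± 0.19).

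Genes known for induction by interferon gamma rose in 11 of 13 at E18.5 against E14.5, with a median of 1.57. *Iigp1*, an immunity-related GTPase, read -6.15, -6.54 and -6.28 at E14.5 and -2.90, -2.77 and -2.63 at E18.5, a difference of 3.56 ± 0.13 (adjusted p = 2.8e-09), and it stayed at that level with -2.67 and -2.44 at P5 and -2.27, -2.46 and -2.52 at P56. Its relative *Igtp* rose by 2.69 ± 0.14 and fell at P5 by a difference of -0.88 ± 0.15, beside *Irgm1* at -0.94 ± 0.14. In all, 3 of 13 fell at P5. At P56 against P5, *Cxcl9* rose by 0.54 ± 0.17, while *Ifi30*, a lysosomal thiol reductase, had a difference of -0.95 ± 0.12 and *Tgtp* one of -0.43 ± 0.16. At P56, 12 of 13 were higher than at E14.5, led by *Iigp1* (3.91 ± 0.13) and *Gbp3* (1.97 ± 0.26), and *Ifi30* was lower (-0.70 ± 0.11).

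Of the 9 STAT and IRF factors outside the members, 8 rose at E18.5 and *Irf3*, present constitutively in most cells, did not pass at 0.12 ± 0.10. *Stat2* rose by 1.88 ± 0.14 and *Irf9* by 1.79 ± 0.16. From E18.5 to P5, 2 of the 9 fell, among them *Irf9* (-0.83 ± 0.17), and *Stat2* had -0.49 ± 0.16 and did not pass. Between E14.5 and E18.5, *Irf8*, a factor of macrophages and dendritic cells, rose by 1.38 ± 0.13, *Irf2* by 1.14 ± 0.17 and *Irf5* by 0.65 ± 0.11. *Irf4* was well above background on all 3 E18.5 arrays and on no array of another stage. It passed the filter through E18.5 alone, so its place among the 8 that rose is no test. Its level at E18.5 was at least 1.33-fold above E14.5. After P5, *Irf3* rose by 0.65 ± 0.12 and *Irf2* by 0.51 ± 0.20, and 2 of the 9 fell, among them *Irf8* (-0.92 ± 0.14). The *Irf2* values of P5 and P56 overlapped. Against E14.5, P56 was higher for 8 of the 9, *Irf4* being the exception.

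Of the 9 receptors and kinases 7 rose at E18.5 against E14.5, with a median of 0.54 and with *Ifngr1*, a chain of the gamma receptor, at 1.27 ± 0.14 and *Ifnlr1*, of the type III receptor, at 1.16 ± 0.10 the largest. *Ifnar2* and *Ifnar1*, the type I receptor chains, rose by 0.88 ± 0.12 and 0.39 ± 0.09, *Jak1* rose by 0.54 ± 0.17, *Jak2* had -0.29 ± 0.10 (adjusted p = 0.034) and *Tyk2* did not pass at 0.31 ± 0.16. At P5 only *Ifnlr1* changed, by -0.76 ± 0.11. At P56 against P5, 6 of 9 fell and none rose, among them *Ifngr1* (-1.40 ± 0.16), *Jak1* (-1.19 ± 0.19) and *Ifnar1* (-0.30 ± 0.10). Against E14.5, *Ifnar2* (2.14-fold) and *Ifngr2* (0.71 ± 0.16) were higher at P56, and *Jak2* (-1.14 ± 0.10), *Il10rb* (-0.48 ± 0.14) and *Jak1* (-0.46 ± 0.17) were lower. The *Jak1* values of these stages overlapped.

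Of 12 sensors and adaptors 7 rose at E18.5, led by *Ifih1*, which encodes the RNA sensor MDA5 (2.12 ± 0.14), and *Tlr9* (1.89 ± 0.11), and at P56 both were still above E14.5, by 2.57 ± 0.14 and 1.80 ± 0.11. *Dhx58*, which encodes LGP2, was the only one to change at P5, by -0.76 ± 0.20, and it rose by 0.53 ± 0.20 at P56 beside *Ifih1* at 0.74 ± 0.15, while *Ddx58*, which encodes RIG-I, fell by 0.52 on the log2 scale. The *Dhx58* values of P5 and P56 overlapped. Of the 4 inhibitors tested, *Pias1* alone passed at E18.5 (0.42 ± 0.14), and *Socs1* and *Socs3* had 0.15 ± 0.20 and -0.27 ± 0.15. At P56, *Pias1* was below P5 by a difference of -0.58 ± 0.16 and below E14.5 by one of -0.38 ± 0.14, and *Socs1* exceeded E14.5 by 0.56 ± 0.20. *Pias3* was above P5 and E14.5 by 0.65 ± 0.22 and 0.63 ± 0.20. Its P56 values of 0.94, -0.02 and 0.76 overlapped those of both stages, and only 2 of these arrays had it well above background.

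The interferon genes themselves were little detected. Of 9 listed ligands 7 were on the array and 3 passed the filter. *Ifna1* rose by 0.56 ± 0.11 at E18.5 and by 0.44 ± 0.12 between P5 and P56. *Ifna9* did not pass in any of the 4 comparisons. *Ifng* was not well above background in Cy5 on any E14.5 or P56 array, so no fold is given between them although the fit counts it among the 64 genes higher at P56, and its E18.5 and E14.5 values overlapped. Interferon alpha genes are near-identical copies, so a probe may report several of them.

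**Figure D4:**
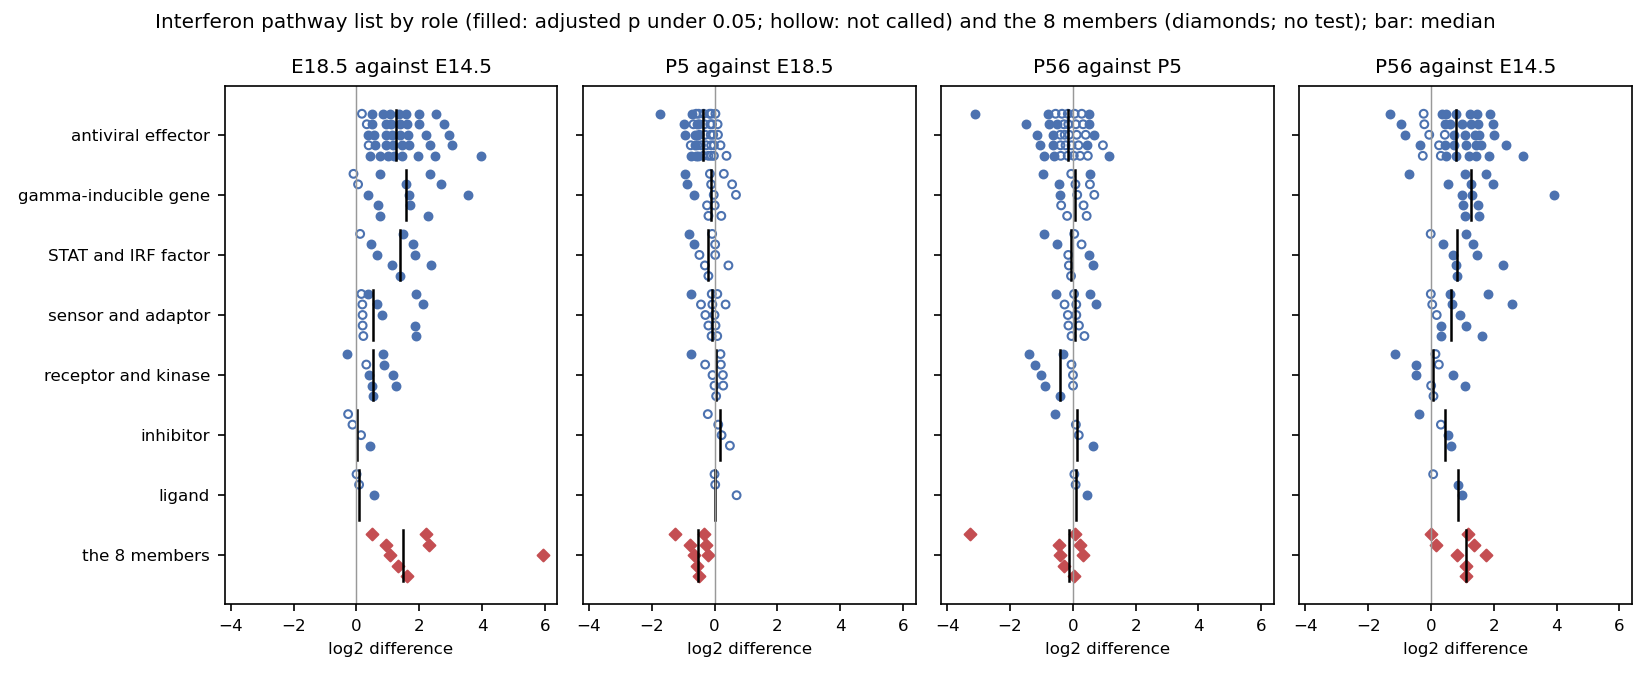
Log2 differences of the 90 pathway genes that passed the filter, by role, and of the 8 members (diamonds, not tested), in each of the 4 comparisons. Filled circles passed an adjusted p of 0.05, hollow circles did not, and black bars are medians. At E18.5 against E14.5 the medians of effectors, gamma-inducible genes, STAT and IRF factors and members lie between 1.27 and 1.57, and those of inhibitors and ligands near 0.

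Markers of other cells also differed between the stages. Of all genes, 24.6% rose and 22.8% fell from E14.5 to E18.5, and 7.32% rose and 6.4% fell from E18.5 to P5. From P5 to P56, 20.9% rose and 24.7% fell. Between E14.5 and E18.5, the mean log2 ratio of 10 macrophage markers went from between -3.05 and -2.68 to between -1.53 and -1.21, and 10 of 10 rose. That of 6 neutrophil markers went from between -0.06 and 0.21 to between 3.18 and 3.23, with 6 of 6 higher. Of 8 lymphoid and plasmacytoid markers 4 rose, and their mean went from between -0.92 and -0.80 to between -0.56 and -0.43. The B-cell marker *Cd79a* and the natural killer marker *Klrb1c* were well above background on no E14.5 array and on all 3 at E18.5. Their log2 ratios overlapped between these stages. *Siglech*, a marker of plasmacytoid dendritic cells, had a probe but was not well above background on any array at any stage. Of 6 endothelial markers 4 rose, and 7 of 7 hepatocyte markers rose with a median difference of 2.95. Of 4 hepatoblast markers 2 rose and none fell, with a median difference of 0.76, and from P5 to P56 all 4 fell. The erythroid mean overlapped between the fetal stages, at 3.13 to 3.19 and 3.08 to 3.46. From E18.5 to P5, where the members lay lower, 3 of 6 neutrophil and 3 of 6 erythroid markers fell, while the medians were -0.01 for macrophage markers (2 rose, none fell), 0.14 for lymphoid and 0.20 for endothelial markers. From P5 to P56, 7 of 10 macrophage, 6 of 6 neutrophil, 6 of 6 erythroid and 6 of 6 endothelial markers fell, and the neutrophil mean went from between 2.30 and 2.77 to between -2.36 and -1.67. Between E14.5 and P56, where 6 members lay higher, 5 of 10 macrophage markers rose, and so did 36.1% of all genes. In the same comparison 5 of 6 neutrophil and 6 of 6 erythroid markers fell, with medians of -2.35 and -3.42, where 34.8% of all genes fell. The part of these cells in the members' differences was not tested.

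**Figure D5:**
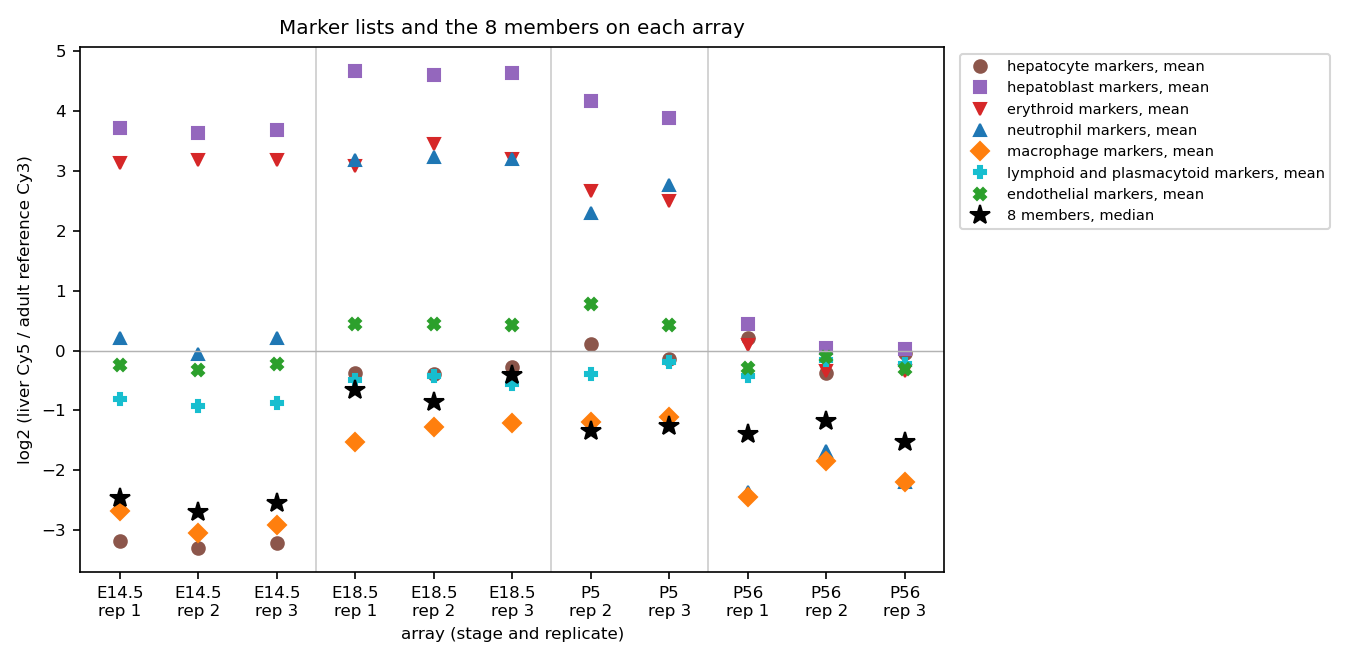
Mean log2 ratio of each marker list and median of the 8 members on each array, in the order of the stages. The median of the members lies between -2.70 and -2.47 at E14.5 and between -0.85 and -0.41 at E18.5, the macrophage, neutrophil and hepatocyte means also lie higher at E18.5, and the neutrophil, erythroid and hepatoblast means are lowest at P56.

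Across the 11 arrays the members' log2 ratios correlated with one another, Pearson's r running from 0.34 (*Irf7* with *Mx1*) to 0.97 (*Ifit1* with *Ifit3*), as a description over arrays that share stages and the reference. *Irf7* was least like the mean of the members' centred values (r = 0.76) and *Usp18* most (0.99). The 8 other genes most like that mean, with r of 0.985 to 0.989, were *D11Ertd759e* (*Rnf213* in RefSeq), *AI585793*, *Arhgef16*, *Psme1*, *Irgm* (*Irgm1*), *Serpina11*, *2310057J16Rik* (*Camsap3*) and *Lcn2*. The first of these, a giant ubiquitin ligase gene, had stage means of -3.85 (E14.5), -0.27 (E18.5), -1.61 (P5) and -2.19 (P56). *Psme1*, a proteasome activator subunit, had means in the same order of -1.58, -0.41, -0.84 and -1.06, and *Lcn2*, an iron-carrier-binding protein, -3.11, -1.26, -1.94 and -2.37.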

How the data were processed

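Liver RNA (Cy5) and an adult liver reference (Cy3) were measured on 11 arrays. For every spot, unnormalized intensity values written by Feature Extraction 9.5.1.1 were deposited, along with the authors' gene table, in which lowess-normalized log2 ratios are averaged for 28050 genes and which served as an alternative only. The 8 members and all lists were chosen with earlier results of these data known.

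Mean signals were corrected with normexp (offset 50) and normalized by loess within each array in limma 3.58.1 and R 4.3.3. Control spots were dropped, as were 177 to 356 outlier spots on each array. Probes entered the fit where every array of some stage detected them in Cy5 and no stage lacked over 1 value, and each gene was taken from its brightest probe. The 16702 genes were fitted with lmFit and eBayes over all 11 arrays, and p-values were adjusted by Benjamini-Hochberg (threshold 0.05). The fit was tested on simulated data. The number of arrays limits the precision, and nothing states that replicates came from separate animals beyond the words biological replicate.

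Genes named are, apart from a few not reported here, the 8 members, listed receptors, kinases, STAT and IRF factors, the 2 largest rises and falls of each role and comparison among called genes, and the 8 genes most like the members. Others named as illustrations were chosen after their values were seen. Names are those of the array design (coordinates on mm7), and RefSeq of GRCm38.p6 gave promoters and current symbols (*Irf9* for Isgf3g, *Ifnlr1* for Il28ra, *Dhx58* for D11Lgp2e, *Uba7* for Ube1l, *Gbp3* for Gbp4). Same-numbered arrays did not deviate together (15 pairs, correlation of deviations -0.31 to 0.19), so the number was used as a block only in an alternative. The submitters' processing notes name limma. Figures were drawn with matplotlib 3.10.9.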

Additional observations from a re-analysis of the deposited data

How the results depend on the processing

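The sign of the members' median difference was kept in each setting run for E18.5 against E14.5, P5 against E18.5 and P56 against E14.5. For E18.5 against E14.5, 1.47 became 2.40 with the software's processed signals, 1.18 with the mean of all probes and 1.87 with the authors' gene table, and for P5 against E18.5, -0.52 became -0.83 with the processed signals and -0.77 with the table. For P56 against P5, -0.11 became -0.37 with the processed signals and -0.73 with array median centring, and ranged up to 0.04, and for P56 against E14.5, 1.11 became 0.24 with median centring, where the median of all genes was -0.33, and 1.36 with the table. The cause was not tested.

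Of the pathway genes called, requiring an absolute log2 difference of at least 1 as well left 45 of 73 for E18.5 against E14.5, 1 of 18 for P5 against E18.5, 8 of 36 for P56 against P5 and 39 of 73 for P56 against E14.5. For P5 against E18.5 the count was 7 with median centring, 2 with the authors' gene table and 0 with the methods' t-test after adjustment (19 unadjusted). For P56 against P5 it was 61 with median centring, 15 with the table, 18 with the scan as a fixed block and 1 with the methods' t-test after adjustment (29 unadjusted). With 1 array left out, counts ran from 65 to 74, 10 to 24, 20 to 38 and 66 to 74 in the order of the comparisons above. The count of 10 came without E18.5 replicate 3 and without P5 replicate 3, and that of 20 without P5 replicate 2. With the replicate number as a block the counts were 73, 15, 35 and 72. For P5 against E18.5 and P56 against E14.5 a fit with the scan as a block was not possible, since no scan held both stages. Dim spots at E14.5 and P56 limit *Mx1*, *Ifit2* and the ligands.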

Other observations

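At P56 all 8 members lay below the adult reference, which is also normal adult liver, on all 3 arrays, with a median of -1.31. The same held for 80 of the 90 pathway genes (88.9%), with a median of -0.89, and for 6561 of the 16702 genes tested (39.3%), with a median of -0.02. In the other direction, 3 pathway genes (3.33%) and 34.3% of all genes lay above the reference on all 3 arrays. Of the members, *Ifit2* and *Mx1* were not well above background in Cy5 on any P56 array. P56 replicates 2 and 3 also had fewer Cy5 spots well above background (16790 and 20131) than any array of another stage. The reference is 1 RNA preparation and no dyes were swapped, so dye and sample cannot be told apart here.

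E18.5 replicate 3 was the highest of the 3 E18.5 arrays for 6 of the 8 members and for 62 of the 90 pathway genes (68.9%), against 27.3% of the 16678 genes with a value on all 3 arrays. For *Isg15* it stood at 1.85 beside 0.93 and 0.90, and for *Rsad2* at 4.07 beside 3.23 and 3.60. Without this array the median difference of the members between E18.5 and E14.5 kept its sign.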
